A study of Saccharomyces cerevisiae with 3 samples.

Results

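The genes described here encode the proteins of the small (40S) subunit of the cytosolic ribosome of Saccharomyces cerevisiae, budding yeast. They were chosen by name: every row of the deposited table whose locus tag has, in RefSeq's table for assembly R64, a symbol made of RPS, a number and an optional A or B. The reference holds 56 such symbols, for 32 proteins, and 55 of them were found in the table, among 6174 genes in all. The missing one, RPS14A, was not matched by locus tag. Of the 32 proteins, 24 are encoded by a pair of genes, the A and the B copy, and 8 by a single gene.

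Each array compared cells exposed to caspofungin at 15 ng/ml for 2 hours with the untreated part of the same culture, both grown in rich medium (YEPD) at 24 °C. Both parts were of a BY4741 strain with the genotype WSC1extMID2cyt, whose name refers to the cell wall stress sensors Wsc1 and Mid2, so nothing here sets that strain against its parent. Caspofungin blocks the enzyme that makes the main glucan of the yeast wall. Treated and untreated RNA were labelled with different dyes and hybridised together, treated RNA carrying Cy3 on array 1 and Cy5 on arrays 2 and 4.

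Ribosomal protein genes are among the most strongly transcribed genes of a growing yeast cell. Their transcription is known to be driven mainly through the factors Rap1, Fhl1, Ifh1 and Sfp1 under control of nutrient and stress signalling by TORC1 and protein kinase A, and it is known to be lowered together in many kinds of stress. Most A and B copies date from the ancient duplication of the yeast genome and encode identical or nearly identical proteins. The small subunit binds the mRNA and decodes it, and its proteins lie around the path of the mRNA, in the head and in the body.

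The values are deposited log2 ratios of the 2 channels, 1 per row and array. Whether a positive value means higher or lower with caspofungin is not given in the sources used here, and base 2 is assumed. The text therefore gives only the side of 0, positive or negative, on which a value lies. Whether array 1, with swapped dyes, was put in the same orientation as arrays 2 and 4 is not given either. Means, SDs, tests and counts over the 3 arrays take the sign of array 1 as deposited unless stated. Under the series' own description the arrays came from 2 cultures: arrays 2 and 4 from different ones, and array 1 from one of these, which one being unknown. An SD over 3 arrays therefore holds technical and biological spread together. Spot brightness was not used here, and the number of arrays limits the precision. Probe sequences were not used here, so the A and B copies of a protein may share signal. Of the MATa markers searched, STE2 had values on all 3 arrays, BAR1 on 2 and MFA2 on 1, all on the negative side, and MFA1 had none. The MAT alpha markers searched had none either. Most genes outside the small subunit lacked a value on each array, so a missing value does not tell the mating type.

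Small subunit genes were measured far more often than the rest of the table. A value was present on array 1 for 80.0% of them, against 40.5% of all other genes, on array 2 for 76.4% against 30.8%, and on array 4 for 72.7% against 11.5%. All 3 arrays measured 34 of the 55 genes. A further 8 had values on arrays 1 and 2 alone, 6 on array 4 alone and 2 on array 1 alone. No array gave a value for RPS9A, RPS19A, RPS27A, RPS29B or RPS30A, and in each of these 5 cases the partner copy was measured. At least 1 gene was measured for each of the 32 proteins.

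As a group the small subunit genes lay close together and slightly on the negative side. On array 1 the 44 genes with a value had a median log2 ratio of -0.26, against -0.20 over all genes. The 42 genes of array 2 also had a median of -0.26, against -0.22, and the 40 of array 4 had -0.12, against 0.09. On array 1, 41 of the 44 were negative (93.2%, against 67.5% of all genes), on array 2, 32 of 42 (76.2%, against 67.5%), and on array 4, 26 of 40 (65.0%, against 43.3%). The interquartile range of the members was narrow, at 0.28, 0.46 and 0.33 on arrays 1, 2 and 4, against 0.56, 0.72 and 0.81 over all genes. Of 126 single values only 4 reached a 2-fold change, among them those of RPS24B and RPS14B on array 2 and of RPS21B on array 4, all negative. By array this was 0%, 4.76% and 5.0% of the members' values on arrays 1, 2 and 4, against 5.75%, 11.8% and 23.6% over all genes.

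**Figure D1:**
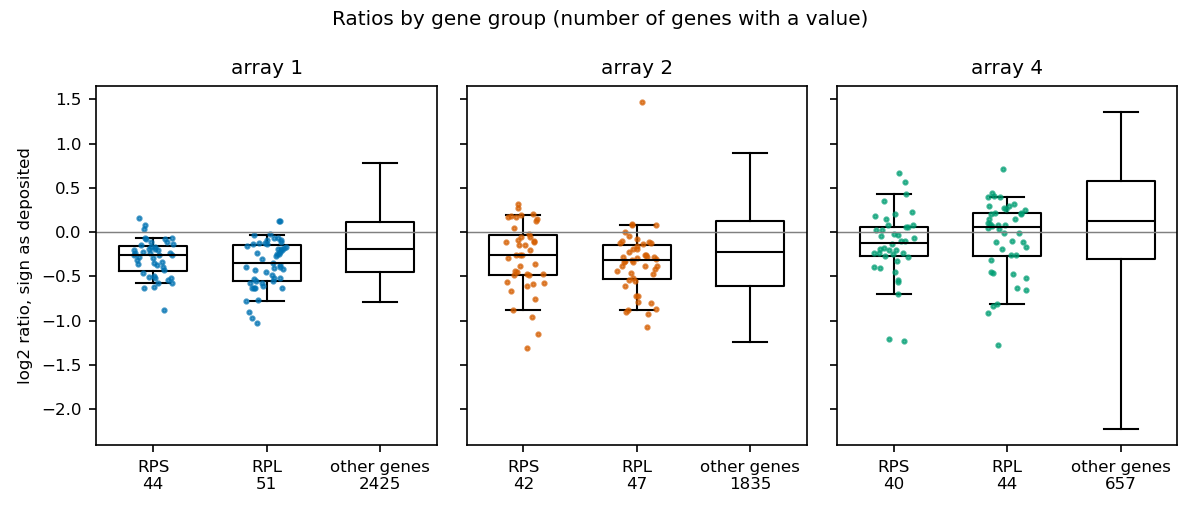
Log2 ratios (vertical axis, sign as deposited) on each array for small subunit (RPS) genes, large subunit (RPL) genes and all other genes, with the number of genes under each name. Boxes span the quartiles with the median as a line, whiskers the 5th to 95th percentile, and points are single ribosomal protein genes. RPS medians were -0.26, -0.26 and -0.12, and the RPS boxes are narrower than those of the other genes.

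No single small subunit gene differed from 0 in the test. The moderated test of limma, run over all 585 genes with 3 values and adjusted by the Benjamini-Hochberg method at 0.05, called 0 of the 34 members (0% of all genes tested were called), and the smallest adjusted p of a member was 0.409. At an unadjusted p under 0.05 there was 1 member, RPS24B. All 3 arrays were negative for 18 of the 34 genes (52.9%), where 29.1% of all 585 genes, and 27.6% of those outside the family, were negative throughout, and 0 were positive throughout (18.1% of all genes). The 8 members measured on arrays 1 and 2 alone were negative on both, as were 53.8% of all genes measured in that way. The remaining 16 had both signs. This count leaned on where each array's 0 lies: with each array centred on its own median 7 of the 34 stayed negative throughout (20.6%), close to the 19% of all genes. Over the 34 genes the median of the 3-array means was -0.23, against -0.07 over all 585 genes, and 30 of the means were negative (88.2%, against 56.8%). The members' median was -0.12 after the same centring and -0.063 with the sign of array 1, the one with swapped dyes, turned. Centring shifts all genes of an array alike, so the gap between the members' median and that of all 585 genes was unchanged by it. With array 1 turned the median of all genes was not computed.

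The large subunit gave a similar picture with a different split between arrays. Its median over 38 genes with 3 values was -0.23, equal to 2 decimals to that of the small subunit, and 17 of the 38 (44.7%) were negative on every array. On array 4, however, the RPL median was 0.06 (44 genes, 20 of them negative) beside -0.12 for RPS genes. This difference was not tested. The large subunit shared the narrow spread, with interquartile ranges of 0.40, 0.38 and 0.49 on arrays 1, 2 and 4. A 2-fold change was reached by 1.96%, 4.26% and 2.27% of its values. All 3 arrays measured 51.4% of large subunit genes, beside 61.8% of small subunit genes and 9.0% of all genes outside the small subunit.

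**Figure D2:**
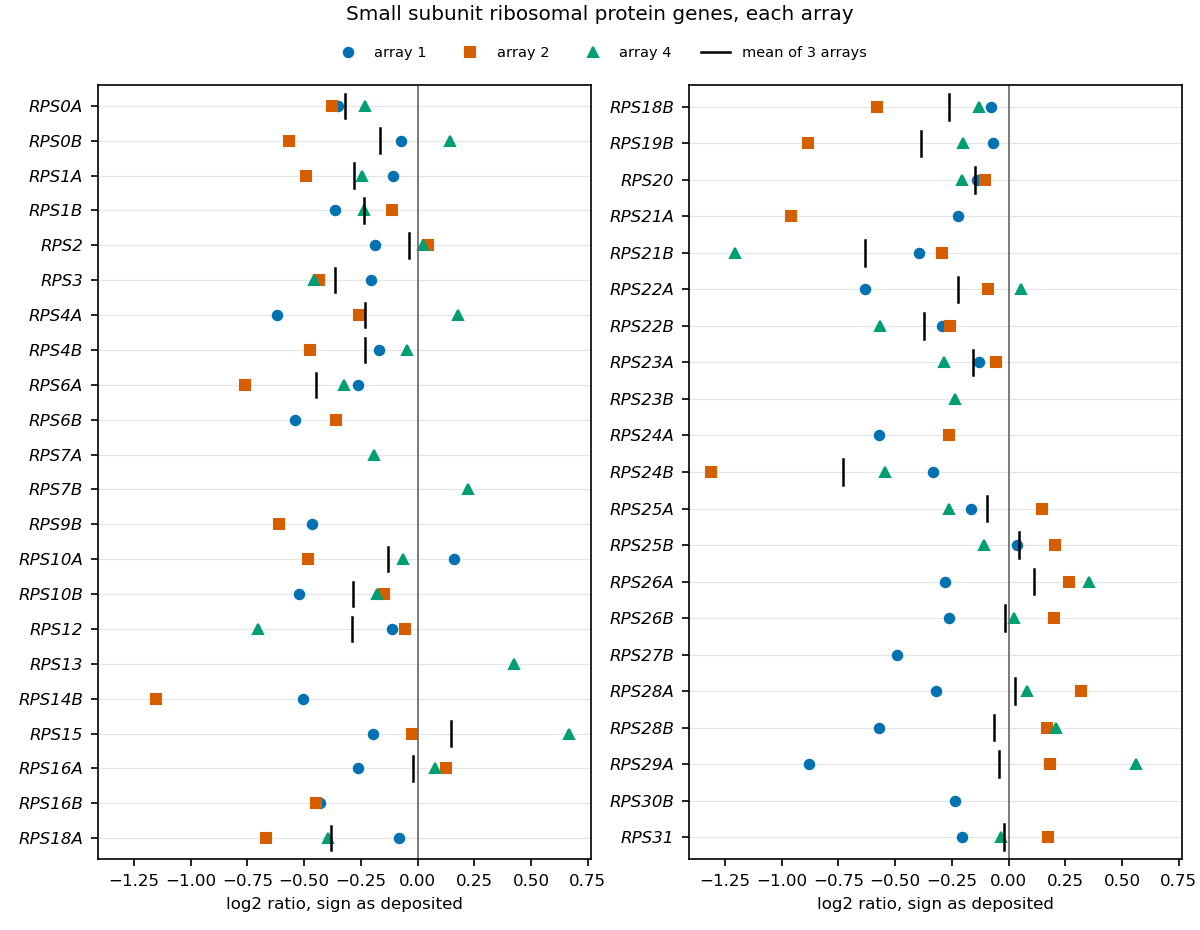
Log2 ratio (horizontal axis, sign as deposited) of 43 small subunit genes with a value. Circles are array 1, squares array 2 and triangles array 4, and black bars mark the mean where all 3 arrays gave a value. Most points lie between -0.6 and 0.2, and RPS24B, RPS14B and RPS21B each have a value beyond -1.

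Around the mRNA entry and the decoding centre, 3 genes had all values. RPS3, whose protein shapes the entry channel, had -0.21, -0.43 and -0.46 on arrays 1, 2 and 4, a mean of -0.37 ± 0.14 (SD, n = 3 arrays, as for all means of 3 arrays below). RPS2, which encodes another wall of that channel, had -0.19, 0.05 and 0.03, a mean of -0.04 ± 0.13. RPS23A, encoding the decoding-centre protein uS12, had -0.13, -0.06 and -0.28. RPS3 and RPS23A were thus negative throughout and RPS2 stood near 0. RPS23B had -0.24 on array 4 alone. RPS9B, for an early-binding protein of the body, had -0.47 and -0.61 on arrays 1 and 2, and RPS30B had -0.24 on array 1.

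Near the mRNA exit and on the platform, 9 genes had all values, with means from -0.32 to 0.11. RPS0A, whose protein sits at the exit side, had -0.35, -0.38 and -0.23, a mean of -0.32 ± 0.08. Its partner RPS0B had -0.07, -0.56 and 0.14. RPS1A had -0.11, -0.49 and -0.25, and RPS1B had -0.36, -0.11 and -0.24; both encode eS1 of the platform. RPS0A and both RPS1 copies were negative on every array. The genes for eS26 and eS28 encode proteins that lie next to the exiting mRNA. RPS26A had -0.28, 0.27 and 0.35, RPS26B -0.26, 0.20 and 0.02. RPS28A had -0.32, 0.32 and 0.08, RPS28B -0.57, 0.17 and 0.21. All 4 were negative on array 1 and positive on arrays 2 and 4, and their means lay between -0.06 and 0.11. RPS14B, encoding the platform protein uS11, was not measured on array 4 and had -0.51 and -1.16 on arrays 1 and 2, a mean of -0.83 ± 0.46 (SD, n = 2 arrays), the lowest of any member with 2 or more values. In a limma fit of arrays 1 and 2 alone, RPS14B passed (adjusted p = 0.036), in a setting where 11.2% of 1863 genes passed and both arrays may come from one culture.

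In the head and beak 13 genes had all values, with means from -0.39 to 0.15. RPS19B, encoding eS19, had -0.07, -0.88 and -0.20, a mean of -0.39 ± 0.44 that rested largely on array 2. RPS18A had -0.08, -0.67 and -0.40 and RPS18B -0.08, -0.58 and -0.13; their product uS13 bridges the subunits. RPS20, encoding uS10, had the smallest SD of the genes with 3 values, at -0.14, -0.10 and -0.20, a mean of -0.15 ± 0.05. These 4 genes were negative throughout. RPS12, encoding a beak protein, had -0.11, -0.06 and -0.70, so that array 4 stood apart. RPS15, encoding uS19, had -0.19, -0.02 and 0.67, and its mean of 0.15 ± 0.46 was the highest of the genes with 3 values but rested on array 4. RPS31, which encodes eS31 fused to ubiquitin, had -0.21, 0.17 and -0.03. RPS29A, encoding uS14, had -0.88, 0.18 and 0.56, the largest spread of any member with 3 values (SD 0.75 around a mean of -0.04). RPS16A, encoding uS9, had -0.26, 0.13 and 0.08, while RPS16B had -0.43 and -0.45 on arrays 1 and 2.

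The positions were not tested against each other. Of the genes with 3 values, 6 of 9 body, 2 of 3 entry, 4 of 9 exit and 6 of 13 head genes were negative throughout. The median of their means was -0.29 for body genes, -0.16 for entry genes, -0.16 for exit genes and -0.13 for head genes. On array 4 alone, over all genes with a value there, the order was another, with a median of -0.05 for the 13 body genes, -0.26 for 4 entry genes, 0.02 for 9 exit genes and -0.16 for 14 head genes. RPS24B, encoding eS24, had -0.33, -1.31 and -0.55, and its mean of -0.73 ± 0.51 was the lowest of the genes on 3 arrays (limma adjusted p = 0.409). RPS21B, encoding eS21, had -0.39, -0.29 and -1.21, a mean of -0.63 ± 0.50 (limma adjusted p = 0.409). RPS24B was lowest on array 2 and RPS21B on array 4. Without array 2 the means were -0.44 for RPS24B and -0.80 for RPS21B, which exchanged their order, and without array 4 the mean of RPS21B was -0.34. RPS6A, for the protein phosphorylated downstream of TORC1, had -0.26, -0.76 and -0.32, a mean of -0.45 ± 0.27. RPS6B had -0.54 and -0.36 on arrays 1 and 2, which put both copies of RPS6 on the negative side wherever measured. RPS22B had -0.29, -0.26 and -0.57, a mean of -0.37 ± 0.17. RPS4A had -0.62, -0.26 and 0.18 and RPS4B -0.17, -0.47 and -0.05, with equal means of -0.23. RPS13, the single gene for uS15, had 0.43 on array 4 alone, and RPS27B had -0.49 on array 1 alone.

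The A and B copies of a protein were then compared on each array as the difference of their log2 ratios, A minus B. This difference does not depend on where an array's 0 lies. It could be formed on all 3 arrays for 9 of the 24 pairs, on 2 arrays for 5 and on 1 array for 3. In the remaining 7, 6 had a copy with no value and 1 had copies that shared no array. No pair differed in the limma test: over all 22 pairs of ribosomal protein genes with 3 differences, 0 passed (0% of those tested), including 0 of the 9 small subunit pairs, at no unadjusted p under 0.05 and a smallest adjusted p of 0.869. The A copy was higher in 7 of 14 pairs on array 1, in 7 of 14 on array 2 and in 4 of 12 on array 4. Over the 9 pairs the median of the mean differences was -0.0029.

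**Figure D3:**
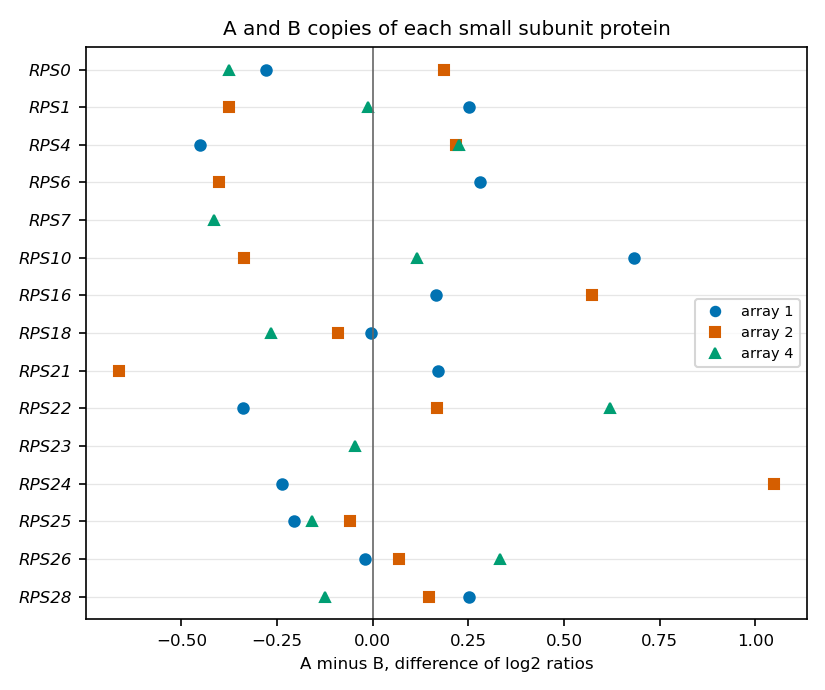
Difference of log2 ratios, A minus B (horizontal axis), for 15 small subunit proteins with both copies on at least 1 array; circles are array 1, squares array 2, triangles array 4. Points of most pairs lie on both sides of 0, while those of RPS18 and RPS25 lie on the negative side on all 3 arrays.

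Only RPS18 and RPS25 had one sign of the difference on all 3 arrays, 2 of 9 pairs (22.2%), where 27.3% of all 22 pairs did. The RPS25 copies, for the head protein eS25, were A -0.17, 0.15 and -0.26 and B 0.04, 0.20 and -0.11, a mean difference of -0.14 ± 0.08. The RPS18 copies differed by -0.01, -0.09 and -0.26, a mean of -0.12 ± 0.13. In both pairs the A copy was the lower one, by less than 0.3 on any array.

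The other pairs changed sign between arrays. RPS22 differed by -0.34, 0.17 and 0.62, a mean of 0.15 ± 0.48 with A -0.63, -0.09 and 0.05 and B -0.29, -0.26 and -0.57. RPS10, for a beak protein, differed by 0.68, -0.34 and 0.12, with A 0.16, -0.48 and -0.06 and B -0.52, -0.15 and -0.18. In RPS10 the copy that was higher on array 1 was the lower one on array 2, and RPS1 showed the same turn at 0.25, -0.38 and -0.01. RPS4 (-0.45, 0.22 and 0.23) and RPS0 (-0.28, 0.19 and -0.37) turned the other way between arrays 1 and 2. RPS26 differed by -0.02, 0.07 and 0.33 and RPS28 by 0.25, 0.15 and -0.13. For these 7 pairs the mean difference was smaller than its SD over the arrays.

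On arrays 1 and 2 alone, 5 more pairs could be set side by side. RPS24 had the only difference of at least 2-fold among 40, 1.05 on array 2, with A -0.26 and B -1.31, but on array 1 it was -0.24, with A -0.57 and B -0.33. RPS21 differed by 0.17 and -0.66 and RPS6 by 0.28 and -0.40. The sign turned in 4 of the 5 pairs, these 3 among them. In RPS16 it did not, with A above B by 0.17 and 0.57. Over all 14 pairs measured on arrays 1 and 2, the sign was shared in 4. For the other A/B pairs of the table this count over arrays 1 and 2 was not made. Over all 3 arrays, 4 of 13 of those other pairs (30.8%) kept one sign. On array 4 alone RPS7 differed by -0.41 and RPS23 by -0.05.

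The median size of the difference between partner copies was 0.25, 0.28 and 0.25 on arrays 1, 2 and 4. Between A and B copies of different small subunit proteins it was 0.21, 0.39 and 0.22, so partners were the closer ones on array 2 alone. Across pairs, Pearson's r of the A with the B copy was -0.10 over the 14 pairs of array 1, 0.37 over the 14 of array 2 and 0.05 over the 12 of array 4. All other A/B pairs of the table, mostly of large subunit genes, tracked more closely, with r of 0.61 (17 pairs), 0.78 (15 pairs) and 0.70 (17 pairs). Their median size of the difference was 0.13, 0.13 and 0.20. These correlations are across genes of one array, which share a hybridisation, and the difference between both sets of pairs was not tested.

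**Figure D4:**
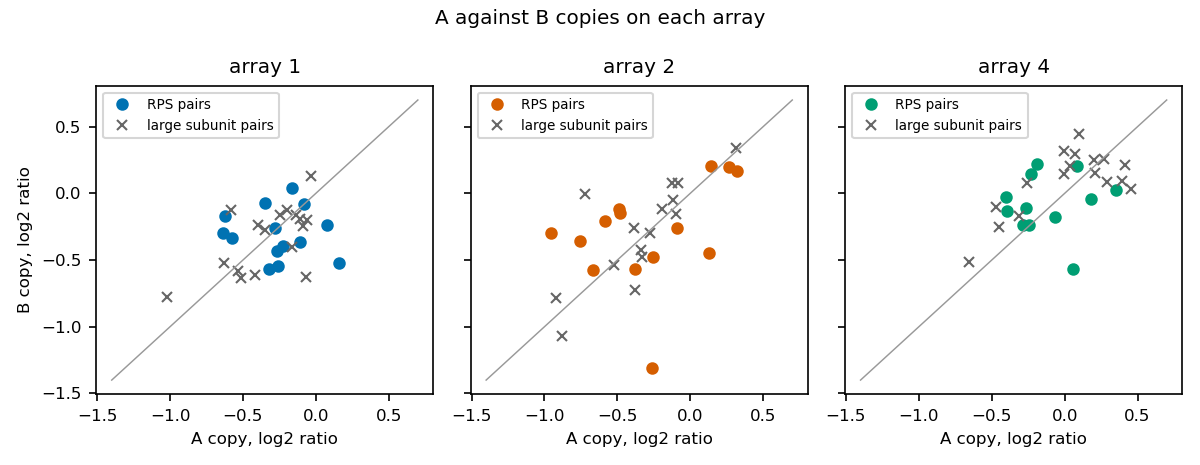
Log2 ratio of the B copy (vertical axis) against the A copy (horizontal axis) on each array; filled circles are small subunit pairs, crosses large subunit pairs including the stalk protein genes, and the line marks equal values. Crosses follow the line more closely than circles do. Across pairs, r was -0.10, 0.37 and 0.05 for the small subunit, and 0.61, 0.78 and 0.70 for all other A/B pairs of the table.

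The order of the members was partly kept between arrays 2 and 4, but not between array 1 and the others. Over the 34 genes with 3 values Spearman's rho across genes was 0.43 for arrays 2 with 4, where all 585 genes gave 0.58. For arrays 1 with 2 it was -0.32 against 0.44, and for arrays 1 with 4 it was -0.12 against 0.11. Pearson's r of the members was 0.38 for arrays 2 with 4, -0.29 for arrays 1 with 2 and -0.19 for arrays 1 with 4, against 0.53, 0.50 and 0.05 over all 585 genes. Genes are not independent replicates. Arrays 2 and 4 share a dye orientation, opposite to that of array 1. Treatment and dye effects cannot be told apart in the agreement of arrays 2 and 4. In 7 genes (RPS2, RPS16A, RPS26A, RPS26B, RPS28A, RPS28B and RPS29A, listed after their values were seen) array 1 was negative and both other arrays positive.

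Of these 7 genes 5 are short, and on array 2 the ratio of the small subunit genes went with gene span. Span is the distance from start to end in the reference with introns included, so it is not the length of the mRNA. The RPS22 copies, for the same protein, span 393 bp (A) and 876 bp (B). Short span and the lack of an intron were not told apart here. Spearman's rho of ratio and span over the 42 members of array 2 was -0.66. It was -0.0049 over the 44 members of array 1 and -0.12 over the 40 of array 4. With a split at 500 bp, chosen after the values were seen, 12 short genes had a median of 0.17 on array 2, with 8 of 12 positive, and 30 longer ones a median of -0.44, with 2 of 30 positive. On array 4 the short and longer members had medians of 0.04 and -0.20, and on array 1 of -0.23 and -0.26. The 12 short members were RPS12, RPS15, RPS20, RPS22A, RPS25A, RPS25B, RPS26A, RPS26B, RPS28A, RPS28B, RPS29A and RPS31. Their lowest value on array 2 was -0.10 and their highest 0.32. The same split in all other genes gave medians on array 2 of 0.13 for 125 short and -0.27 for 1691 longer genes, on array 4 of 0.23 and 0.08, and on array 1 of -0.32 and -0.19. Over the whole range of span, Spearman's rho on array 2 was 0.02 for all other genes and -0.45 for the 47 large subunit genes. Short genes outside the family thus also had the higher median on array 2, and the part of gene span in the ratios of the short members was not tested. Among the 9 body genes with 3 values RPS22A was the only short one.

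**Figure D5:**
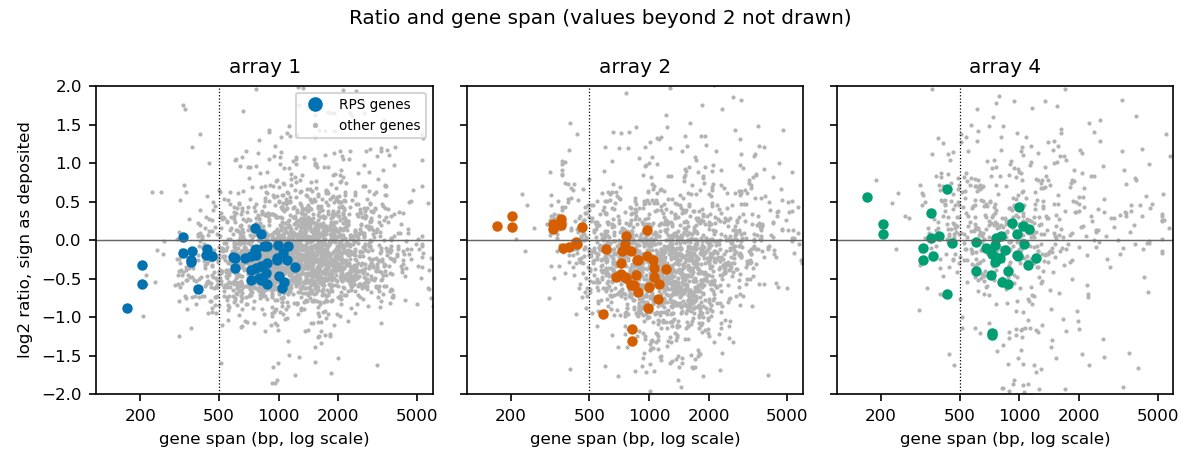
Log2 ratio (vertical axis, sign as deposited) against gene span in the reference (horizontal axis, bp, log scale) on each array; coloured circles are small subunit genes, grey dots all other genes, and the dotted line marks 500 bp. On array 2 the 12 short members have a median of 0.17 and the 30 longer ones of -0.44.

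Genes that regulate or assist the small subunit were measured thinly. Of 15 regulators listed, RAP1, FHL1, SFP1, ABF1, SCH9, TPK3 and MRS6 had no value. CRF1, a corepressor of ribosomal protein genes, had -0.35, -0.58 and -0.28, and the coactivator gene IFH1 had -0.17 and -0.18 on arrays 1 and 2. HMO1, for a high-mobility-group protein of ribosomal protein promoters, had -0.10, -0.03 and 0.19, and KOG1, for a TORC1 subunit, had -0.12, 0.14 and 0.47. CRF1 alone among the 3 regulators with all values was negative throughout, and 0 of the 3 passed the limma test. TOR1 had 1.13 on array 1 alone. Of 13 genes for partners, chaperones and modifiers of small subunit proteins, 4 had all values and all 4 were negative on every array, with 0 past the limma test. Among all 585 genes with 3 values, 29.1% were negative on every array. ASC1, whose product is the RACK1 protein of the small subunit, had -0.82, -0.33 and -0.07. STM1, for a ribosome-preserving factor, had -0.05, -0.48 and -0.49, SFM1, for the methyltransferase of Rps3, -0.32, -0.81 and -0.13, and YAR1, for the chaperone of Rps3, -0.09, -0.29 and -0.15. The assembly factor genes LTV1 (-0.42 and -0.61) and ENP1 (-0.57 and -0.95) were negative on arrays 1 and 2, as was TPA1 (-0.40 and -0.44). Of all genes measured on arrays 1 and 2 alone, 53.8% were negative on both. HEL2, measured on array 1 alone, was positive there at 0.02.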

How the data were processed

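The authors deposited 1 value table with a log2 ratio of the 2 channels per row and array. Its unit was read from the values, since the sources used here state no base, direction, centring, spot filter or scanner. Per the labels' protocols, total RNA was labelled by reverse transcription. Of 6209 rows, 5654 were matched to RefSeq R64 by locus tag and 57 by synonym, and rows of one gene were averaged. limma (3.58.1, R 4.3.3; lmFit, eBayes) tested each gene's ratio against 0 over the 585 genes with 3 values, and A minus B over the 22 pairs of genes whose symbols share a stem and end in A and B. Arrays of one culture were averaged first: in one fit arrays 1 and 2, in the other arrays 1 and 4. Of the resulting p-values the larger was kept and adjusted by Benjamini-Hochberg (threshold 0.05, two-sided). Residual spread came from 2 cultures, so precision is low. The fitting was also run on simulated data in which array 1 always shared the culture of array 2. The spread there was set below the observed one, so its error rates do not carry over to these data. Members, gene lists and tests were chosen with earlier results of these data known. Genes named were members with values, plus list genes; some members are counted but not reported here by name. A planned search of promoters for motifs was not run, and sequences were not used here. Python 3.11.15 (pandas 2.3.3) gave the descriptions. Alternatives were other pairings, separate arrays, centring, scaling, a dye term, a turned array 1, genes with 2 or more values, locus tags alone and leaving out each array.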

Additional observations from a re-analysis of the deposited data

How the results depend on the processing

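The count of small subunit genes past the threshold was 0 under all settings run but one, the fit without array 4, so leaving out an array gave 0 to 1 (RPS14B, which has no value on array 4). In that fit 209 of 1863 genes passed (11.2%), beside 1 of 42 members. Of all genes, 17 of 585 passed after scaling, 17 of 590 without array 1 and 48 of 1899 with 2 or more values. With separate arrays, and with the dye term, 2 of 585 passed. No pair passed under any setting run. The median of small subunit genes was -0.12 after centring, which shifted all genes of an array alike. It was -0.063 with array 1 turned, and -0.32 to -0.18 with an array left out. Genes negative on every array numbered 7 after centring, 1 with array 1 turned (RPS10A; none of the 18 could remain, since all were negative on array 1) and 19 to 30 with an array left out (30 of 42 without array 4), where fewer arrays must share the sign. Pairs with one sign throughout numbered 4 with array 1 turned and 4 to 6 with an array left out (6 of 9 without array 1), and the median A minus B difference was then -0.094 to 0.063. Treated and untreated RNA were already paired on each array, so the ratio tested against 0 is itself the paired comparison. No further pairing was possible with 1 group of arrays. Of 480 recomputed values of single genes and pairs, 0 passed and 51 changed side, from main means no larger than 0.28 in size; the cause was not tested. With arrays 1 and 2 averaged RPS16A became 0.0046, RPS28B 0.0039, RPS29A 0.11 and the RPS4 difference 0.054. With arrays 1 and 4 averaged RPS16A became 0.016, RPS26B 0.039, RPS29A 0.013, RPS31 0.027 and the RPS4 difference 0.052. Centring gave RPS16A 0.090, RPS2 0.071, RPS25A 0.015, RPS26B 0.097, RPS28B 0.046, RPS29A 0.066 and RPS31 0.089. Scaling gave RPS28A -0.0059. The dye term gave RPS28A -0.059 and the RPS1 difference 0.029. Turning array 1 gave RPS10B 0.066, RPS16A 0.16, RPS1B 0.0044, RPS2 0.087, RPS22A 0.20, RPS25A 0.016, RPS26B 0.16, RPS28B 0.32, RPS29A 0.54, RPS31 0.11 and RPS4A 0.18, and differences of 0.031 for RPS0, -0.30 for RPS10, -0.076 for RPS28 and 0.30 for RPS4. With an array left out the ranges that spanned 0 were -0.32 to 0.035 for RPS0B, -0.27 to 0.047 for RPS10A, -0.11 to 0.32 for RPS15, -0.093 to 0.10 for RPS16A, -0.082 to 0.036 for RPS2, -0.034 to 0.12 for RPS25B, -0.0065 to 0.31 for RPS26A, -0.12 to 0.11 for RPS26B, -0.12 to 0.20 for RPS28A, -0.20 to 0.19 for RPS28B, -0.35 to 0.37 for RPS29A and -0.12 to 0.070 for RPS31. For pair differences they were -0.19 to 0.12 for RPS1, -0.11 to 0.40 for RPS10, -0.086 to 0.39 for RPS22 and -0.12 to 0.22 for RPS4. Signal over background was not used here, so the reliability of single spots is unknown.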

Other observations

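In the reference order of protein-coding genes, 6 of the small subunit genes in the table lie directly beside a ribosomal protein gene with which they share a measured array. RPS14B and RPS22A, neighbours of each other, had -0.51 and -0.63 on array 1 but -1.16 and -0.09 on array 2. RPS19B had -0.07, -0.88 and -0.20 beside RPL18B at -0.12, -0.54 and 0.44. RPS16A had -0.26, 0.13 and 0.08 beside RPL13B at -0.52, -0.0027 and 0.21, and RPS16B had -0.43 and -0.45 on arrays 1 and 2 beside RPL13A at -0.63 and -0.72. RPS9B had -0.47 on array 1 beside RPL21A at -0.77.

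Exactly equal values recurred between rows of one array. On array 1, 16 of 44 small subunit values (36.4%) were equal to that of another row, against 22.6% of all values, on array 2, 12 of 42 (28.6%, against 15.1%), and on array 4, 2 of 40 (5.0%, against 2.97%).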
